A study of Mus musculus with 9 samples.

Results

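The genes described here encode the proteins of the mitochondrial ribosome. They were taken as every gene whose symbol in the array annotation starts with Mrpl or Mrps, each read at its brightest probe set with a single symbol, which gave 77 of 19935 named genes. The current mouse reference table holds 84 such symbols. Of these, 6 are pseudogenes, and Mrpl53 shares its probe set with another gene and was left out.

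RNA of 9 adult mouse hearts was hybridised to Affymetrix arrays, 1 heart per array. The tissue was right ventricle together with interventricular septum, from animals of mixed background that includes C57BL/6. The 5 wild-type hearts had the genotype Ezh2f/f, floxed at the gene of the Polycomb histone methyltransferase Ezh2, although their titles read f/wt, a difference that was not resolved. The 4 Ezh2-deficient hearts had the genotype Ezh2f/f;Mef2cAHF::Cre, in which an enhancer of Mef2c, active in the anterior heart field, drives Cre recombinase. It acts in embryonic progenitors of the right ventricle, septum and outflow tract, so cells of other lineages keep the floxed allele. No wild-type heart carried Cre, and loss of Ezh2 cannot be told apart from an effect of Cre. Ezh2 itself read 8.73 ± 0.12 (SD, n = 5) without Cre and 8.88 ± 0.11 (SD, n = 4) in Ezh2-deficient hearts (limma adjusted p = 0.485). This value therefore does not check the labels, and where the probes lie relative to the deleted part was not known.

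The mitochondrial ribosome sits at the inner mitochondrial membrane and translates the few respiratory chain subunits that mitochondrial DNA still encodes. Its ribosomal RNAs come from mitochondrial DNA, whereas all its proteins are encoded in the nucleus, made in the cytosol and imported. Many of these proteins descend from those of the bacterial ribosome, and others occur only in mitochondria. The heart depends on oxidative phosphorylation, and in people inherited defects of MRPL3, MRPL44 or MRPS22 cause mitochondrial disease that can include cardiomyopathy.

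Values below are log2 expression values, and each difference is the Ezh2-deficient mean minus the wild-type mean on that scale. The lowest and highest values of the table were 2.18 and 15.02, and the array medians lay between 7.19 and 7.25. The defining markers of cardiomyocytes averaged 13.5 to 13.8 in every heart and were thus present in the labelled tissue. The letter e or x in the titles has no stated meaning and was treated as a possible batch; e marks 2 wild-type and 2 Ezh2-deficient hearts and x marks 3 and 2. In a principal component analysis, component 1 (30.7% of the variance) set wild-type hearts 4 and 5 off from all others. Component 2 (24.0%) set off Ezh2-deficient heart 3. Overall results are therefore also given without these hearts. The labels give no sex. Xist read 10.27 to 11.16 in wild-type heart 4 and Ezh2-deficient hearts 1 and 3, and 5.09 to 5.49 in the other 6, and the Y-linked Eif2s3y, Kdm5d and Uty were lowest in the same 3 hearts. Hearts with high Xist were thus 1 of 5 wild-type and 2 of 4 Ezh2-deficient ones.

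No mitochondrial ribosomal protein gene passed the test across all probe sets, but most read slightly lower in Ezh2-deficient hearts. Of the 77 genes, 69 had a lower mean and 8 a higher mean, against 52.9% of all probe sets with a lower mean. All 77 were read in the same 9 hearts, so they are not 77 independent observations. Single wild-type hearts read above the genes' own 9-heart means in 34 to 62 of them, and single Ezh2-deficient hearts in 9 to 25. The median difference was -0.097, or 93.5% of the wild-type level, against -0.006 over all probe sets; the middle of the genes ran from -0.15 at the lower quartile to -0.05 at the upper. By limma with Benjamini-Hochberg adjustment over 28815 probe sets 0 of the 77 passed at 0.05, where 0.0347% of all probe sets did (0.0104% in the lower direction), and the smallest adjusted p was 0.138. At an unadjusted p under 0.05 there were 16 members lower, where 5.45% of all probe sets were lower by this rule, and 0 members higher, where 5.23% were. Both groups of hearts were fully separated in 10 of the 77 genes, all lower in Ezh2-deficient hearts, where 1.91% of all probe sets were separated in that direction and 1.79% in the other. An exact two-sided permutation test of each gene called 0 members after adjustment over all probe sets. Its smallest unadjusted p, 0.00794, is the lowest this test can give with so few hearts, and 5 members reached it. The share of all probe sets that reached it was not counted. The smallest adjusted p of the whole table was 0.387. After adjustment, a gene at 0.00794 can pass only where a large share of all probe sets also reach it. The 0 calls of this test were thus nearly fixed by the number of hearts, and no conclusion is drawn from them.

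**Figure D1:**
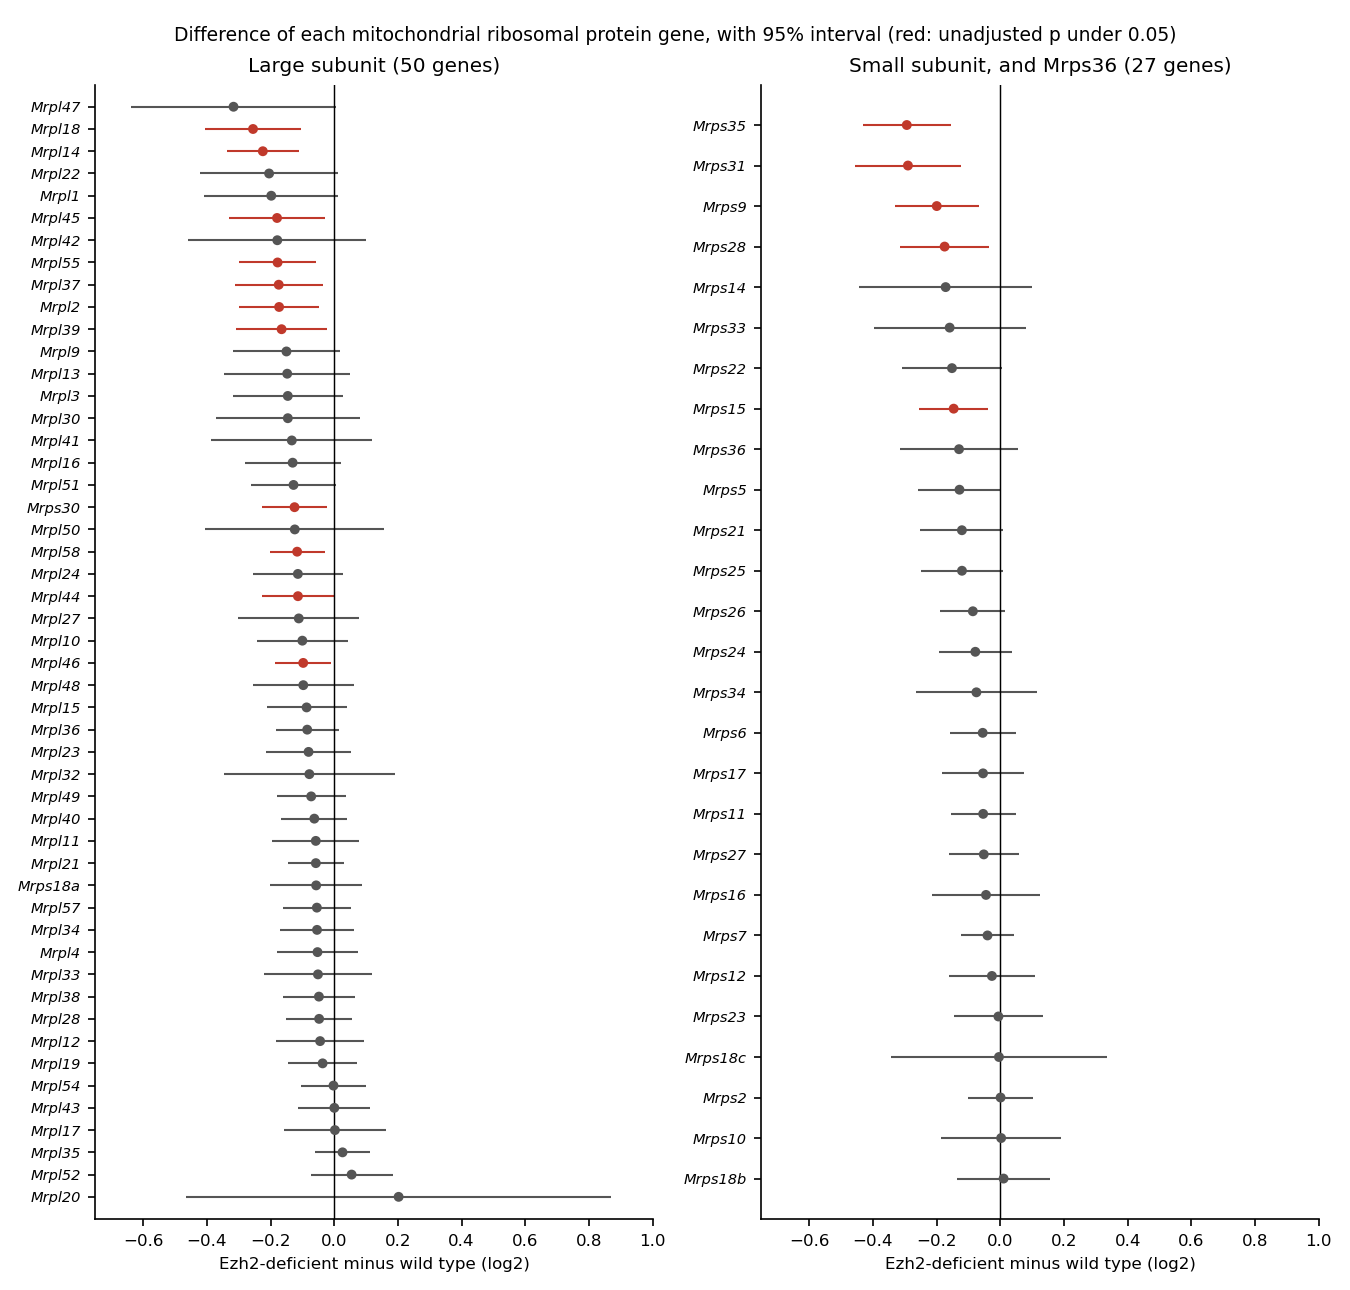
Difference of each of the 77 genes (Ezh2-deficient minus wild type, log2; point) with its 95% interval from limma (line), large subunit left, small subunit and Mrps36 right. Most points lie left of 0, the median is -0.097, and the 16 genes in red have an unadjusted p under 0.05.

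The size of these differences was small against what the arrays could call. The median standard error was 0.0611 for the members and 0.0674 for all probe sets, and a difference of 0.528 would have been needed to pass at the latter. The 95% interval of the difference lay within 0.5 of 0 for 75 of the 77 genes and within 0.3 for 50. The exceptions at 0.5 were Mrpl20 and Mrpl47, whose values scattered more between hearts.

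The hearts did not contribute equally. Averaged over the 77 genes, the deviation of a heart from the mean of all 9 was 0.007, -0.03, 0.03, 0.11 and 0.11 in wild-type hearts 1 to 5. It was -0.08, -0.04, -0.06 and -0.05 in Ezh2-deficient hearts 1 to 4. The Ezh2-deficient hearts lay close together, and wild-type heart 2 lay just above the highest of them. Wild-type hearts 4 and 5 were the highest: both read above the other 3 wild-type hearts in 39 of the 77 genes and below them in 13. Without these 2 hearts 65 genes still had a lower mean, but the median difference was -0.06, and 10 genes were lower at an unadjusted p under 0.05. Without Ezh2-deficient heart 3 as well, 65 had a lower mean and the median difference was -0.05. All probe sets also shifted lower in these settings. Of 28815 probe sets 16117 had a lower mean without wild-type hearts 4 and 5 (median -0.012). Without Ezh2-deficient heart 3 as well, 16488 had (median -0.015). The share of all probe sets lower at an unadjusted p under 0.05 was not counted there. Within title letter e 59 genes had a lower mean, with a median of -0.05, and within letter x 70 had, with a median of -0.13; 54 were lower within both. With the mean of those Y-linked genes as a covariate, 68 genes were lower and the median was -0.10.

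**Figure D2:**
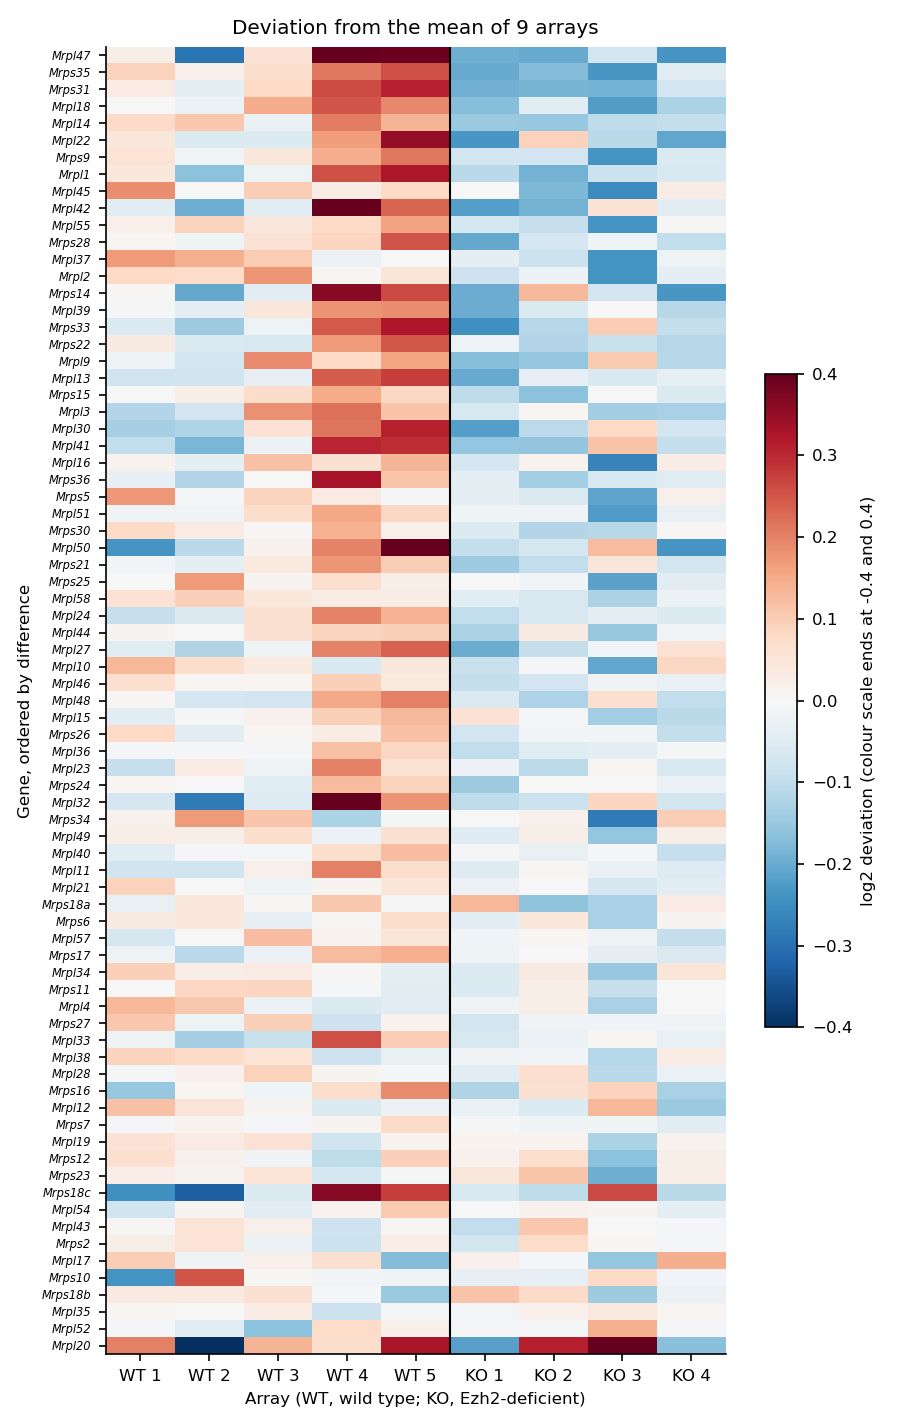
Deviation of each gene (row, ordered by difference) from its own mean over the 9 arrays, on the log2 scale, with wild-type (WT) columns left of the line and Ezh2-deficient (KO) columns right. Wild-type arrays 4 and 5 hold the darkest red, with mean deviations of 0.11 each, and the Ezh2-deficient arrays are mostly pale blue.

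In bulk tissue fewer cells of a type and less RNA per cell cannot be told apart. Means of markers of several cell types differed between the groups, although 0 of them passed limma's adjusted threshold. Of 10 fibroblast markers all had a higher mean in Ezh2-deficient hearts, with a median difference of 0.55, and the list averaged 10.1 to 10.8 in wild-type and 10.8 to 11.1 in Ezh2-deficient hearts. Of 10 endothelial markers all had a higher mean, with a median of 0.22, and list averages of 10.01 to 10.44 and 10.50 to 10.60. All 8 smooth muscle markers and 9 of 10 macrophage markers also had a higher mean, with medians of 0.14 and 0.19, but 0 of either list had an unadjusted p under 0.05 in limma. Within letter e 8 of the 10 macrophage markers had a lower mean (median -0.03), within letter x 4 of the 8 smooth muscle markers had, and without Ezh2-deficient heart 3 the smooth muscle median was 0.25. Without wild-type hearts 4 and 5 the endothelial median was 0.06, with 8 of the 10 markers higher, and the fibroblast median 0.41. Within letter e the endothelial median was 0.13 (8 of 10 higher) and the fibroblast median 0.29 (9 of 10 higher). Of 10 cardiomyocyte markers 9 had a lower mean, with a median of -0.07 and list averages of 13.7 to 13.8 and 13.5 to 13.7. Without Ezh2-deficient heart 3 the split was 7 lower and 3 higher (median -0.03), and within letter e it was also 7 and 3 (median -0.007). Of 11 erythroid markers 3 were measured, and they averaged 8.83 in Ezh2-deficient heart 3 against 6.95 to 7.69 in the other hearts. Averages of 6 atrial markers ranged from 7.78 to 9.66 in wild-type and 8.63 to 10.1 in Ezh2-deficient hearts. The part of these cell types in the lower values of the ribosomal genes was not tested.

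The promoters of these genes are shown next because transcription factors that serve nuclear genes for mitochondria are known. Whether such factors have a part in the lower values of the members was not tested. Sequences are those of RefSeq on GRCm38.p6, and windows of 250 bases before to 50 after the start site were found for 68 of the 77 genes; Mrpl4, Mrpl13, Mrpl15, Mrpl19, Mrpl38, Mrpl54, Mrps28, Mrps34 and Mrps35 had no entry. The 3 factors below are known to act at such genes and were searched by an exact core on both strands: NRF1 (GCATGCGC), the ETS factor GABPA (CCGGAAGT) and YY1 (AAGATGGC). Each window printed here holds at most 1 kind of core. The windows run from 170 bases before to 30 after the start, 5′ to 3′ on the strand of the gene, with a found core in capitals. They are those of the member with the smallest p that holds each core within the printed stretch (Mrpl39, Mrps22 and Mrpl36), and those of the members with the smallest p that have an entry (Mrpl14 and Mrps31).
Mrpl39: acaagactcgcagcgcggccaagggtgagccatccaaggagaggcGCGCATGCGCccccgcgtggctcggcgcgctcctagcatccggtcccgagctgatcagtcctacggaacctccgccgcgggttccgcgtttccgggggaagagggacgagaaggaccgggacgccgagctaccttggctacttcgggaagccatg
Mrps22: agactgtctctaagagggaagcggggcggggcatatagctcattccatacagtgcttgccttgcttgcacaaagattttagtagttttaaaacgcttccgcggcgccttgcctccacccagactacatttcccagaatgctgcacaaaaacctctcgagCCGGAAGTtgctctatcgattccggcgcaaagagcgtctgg
Mrpl36: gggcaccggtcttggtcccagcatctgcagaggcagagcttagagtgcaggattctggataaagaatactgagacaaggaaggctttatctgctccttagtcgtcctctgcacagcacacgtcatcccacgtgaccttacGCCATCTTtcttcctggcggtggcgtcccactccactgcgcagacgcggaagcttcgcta
Mrpl14: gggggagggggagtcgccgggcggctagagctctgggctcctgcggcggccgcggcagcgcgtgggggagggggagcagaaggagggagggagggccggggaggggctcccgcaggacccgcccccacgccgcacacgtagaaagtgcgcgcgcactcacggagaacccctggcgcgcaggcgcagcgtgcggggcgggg
Mrps31: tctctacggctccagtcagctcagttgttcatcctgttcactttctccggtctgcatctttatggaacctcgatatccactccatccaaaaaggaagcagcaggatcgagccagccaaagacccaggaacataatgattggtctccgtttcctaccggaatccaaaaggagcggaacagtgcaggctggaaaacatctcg
Mrpl39 (chr16:84735215-84735414, minus strand) holds the NRF1 core on both strands, overlapping itself, from positions -123 and -125 counted from the start site. Mrps22 (chr9:98601650-98601849, minus strand) holds the ETS core from position -11, next to the start. Mrpl36 (chr13:73330839-73331038, plus strand) holds the YY1 core in reverse complement from position -30. Mrpl14 (chr17:45686179-45686378, plus strand) and Mrps31 (chr8:22411170-22411369, plus strand) hold none of the 3 cores in these windows.

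Over the full windows the 3 cores were more frequent at mitochondrial ribosomal genes than over the whole promoter table. The YY1 core was found at 12 of 68 members (17.6%) and at 2.88% of 27025 promoters, 1 window per gene. The ETS core was found at 11 members (16.2%) and 4.0% of all promoters. The NRF1 core was found at 8 members (11.8%) and 2.8% of all. At least 1 of the 3 was held by 28 members (41.2%) against 9.15% of all promoters. Among nuclear respiratory chain genes the YY1, ETS and NRF1 cores stood at 8, 4 and 7 of 56 promoters, and among cytosolic ribosomal protein genes at 2, 7 and 2 of 44. The 3 general elements searched were not as different: CCAAT stood at 38.2% of members and 37.9% of all promoters, CACGTG at 7.35% and 7.24%, and TATAAA at 5.88% and 14.2%. For each of these 3 cores the median difference was less negative in members with the core than in those without it. The median difference was -0.06 with and -0.12 without the YY1 core, -0.09 and -0.10 for ETS, and -0.09 and -0.10 for NRF1. For the longer NRF1 core, held by 3 members, the order was the other way, at -0.15 with and -0.10 without. No test was made, and these are matches of letters, not measured binding.

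The small subunit holds the decoding centre, where messenger and transfer RNA are read. It was represented by 26 genes, leaving out Mrps30 and Mrps18a, whose products are known to sit in the large subunit, and Mrps36. Of these 23 had a lower mean, 5 were lower at an unadjusted p under 0.05, where 5.45% of all probe sets were, and the median difference was -0.08. It was -0.05 without wild-type hearts 4 and 5 and -0.08 within letter e.

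Mrps35 encodes a small-subunit protein found only in mitochondrial ribosomes and had the smallest p of all members. It read 9.45, 9.37, 9.42, 9.56 and 9.61 in the wild-type hearts and 9.15, 9.18, 9.12 and 9.31 in the Ezh2-deficient hearts. The groups did not overlap, with wild-type hearts 4 and 5 the highest and Ezh2-deficient heart 4 nearest to the wild type. The means were 9.48 ± 0.10 (SD, n = 5) and 9.19 ± 0.08 (SD, n = 4), a difference of -0.29 (SE 0.06, 95% interval -0.43 to -0.16) that was 81.6% of the wild-type level and did not pass (limma adjusted p = 0.138). Mrps31 encodes a further mitochondria-specific protein of the small subunit. It read 9.46, 9.39, 9.51, 9.69 and 9.74 in wild-type hearts and 9.24, 9.25, 9.24 and 9.35 in Ezh2-deficient hearts, again without overlap. Its difference was -0.29 (SE 0.07, limma adjusted p = 0.221), with -0.13 among hearts of letter e and -0.40 among those of letter x. Leaving out wild-type hearts 4 and 5 gave -0.19.

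Mrps9 encodes a homologue of a bacterial small-subunit protein that reaches toward the transfer RNA sites. It read 9.47, 9.40, 9.46, 9.56 and 9.62 in wild-type hearts and 9.34, 9.34, 9.18 and 9.35 in Ezh2-deficient hearts. The groups did not overlap, and heart 3 was the lowest of the Ezh2-deficient hearts. The difference was -0.20 (SE 0.06, limma adjusted p = 0.277). Mrps28, which was also separated between the groups, differed by -0.17 (SE 0.06, limma adjusted p = 0.368), or by -0.11 without wild-type hearts 4 and 5. Within letter e Mrps35 differed by -0.18 and Mrps9 by -0.09.

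Mrps15, a homologue of a bacterial small-subunit protein that binds ribosomal RNA early in assembly, read 11.01, 11.03, 11.08, 11.16 and 11.09 in wild-type hearts. Its Ezh2-deficient values were 10.91, 10.84, 11.01 and 10.95. Ezh2-deficient heart 3 reached just above wild-type heart 1, and the difference was -0.15 (SE 0.05, limma adjusted p = 0.332). Mrps21, another homologue of a bacterial protein, read 11.37 to 11.58 in wild-type and 11.26 to 11.45 in Ezh2-deficient hearts, with a difference of -0.12 (SE 0.06, adjusted p = 0.499) that was -0.06 without wild-type hearts 4 and 5.

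Several small-subunit genes showed little difference. Mrps12, whose protein lies at the decoding centre, read 8.45 to 8.65 and 8.38 to 8.62, a difference of -0.03 (95% interval -0.16 to 0.11). Mrps11 differed by -0.05 (interval -0.16 to 0.05), and Mrps23 by -0.006 (interval -0.15 to 0.13). In Mrps23 the sign turned in 7 of 21 other settings.

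The Mrps18 genes are 3 relatives of a single bacterial gene. Mrps18a, whose product sits in the large subunit, read 9.62 to 9.76 in wild-type and 9.49 to 9.79 in Ezh2-deficient hearts (difference -0.06, limma adjusted p = 0.79). This difference was 0.07 among hearts of letter e and -0.18 among those of letter x. Mrps18b read 9.87 to 10.08 and 9.87 to 10.13 (difference 0.01, adjusted p = 0.973). Mrps18c varied most: it read 10.39, 10.30, 10.58, 10.997 and 10.91 in wild-type and 10.57, 10.53, 10.90 and 10.52 in Ezh2-deficient hearts. Wild-type hearts 4 and 5 and Ezh2-deficient heart 3 were high, and the group means of 10.64 and 10.63 were close. The difference of -0.004 (SE 0.15, adjusted p = 0.997) became 0.21 without wild-type hearts 4 and 5.

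The large subunit joins amino acids at the peptidyl transferase centre and passes the growing chain to the membrane. It was represented by 50 genes, of which 45 had a lower mean, 11 were lower at an unadjusted p under 0.05, where 5.45% of all probe sets were, and the median difference was -0.10. It was -0.06 without wild-type hearts 4 and 5 and -0.04 within letter e. Small and large subunit thus had similar medians over all hearts. Within letter e the small subunit had the lower median, and within letter x the large one (small -0.11, large -0.15). The difference between them was not tested.

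Mrpl14 lies on the face of the large subunit that meets the small one. It read 9.17, 9.20, 9.07, 9.30 and 9.23 in wild-type hearts and 8.95, 8.94, 8.995 and 9.001 in Ezh2-deficient hearts. The Ezh2-deficient values were tight and below every wild-type value. The means were 9.20 ± 0.09 (SD, n = 5) and 8.97 ± 0.03 (SD, n = 4), a difference of -0.22 (SE 0.05, limma adjusted p = 0.163). This was 85.6% of the wild-type level. The difference was -0.21 among hearts with letter e and -0.23 among those with letter x, and leaving out wild-type hearts 4 and 5 gave -0.18. Mrpl2, whose protein supports the peptidyl transferase centre, read 10.46, 10.45, 10.56, 10.39 and 10.43 in wild-type and 10.30, 10.36, 10.14 and 10.34 in Ezh2-deficient hearts. Here wild-type hearts 4 and 5 were the lowest of their group and the groups still did not overlap. The difference was -0.17 (SE 0.06, limma adjusted p = 0.317) and -0.21 without those 2 hearts.

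**Figure D3:**
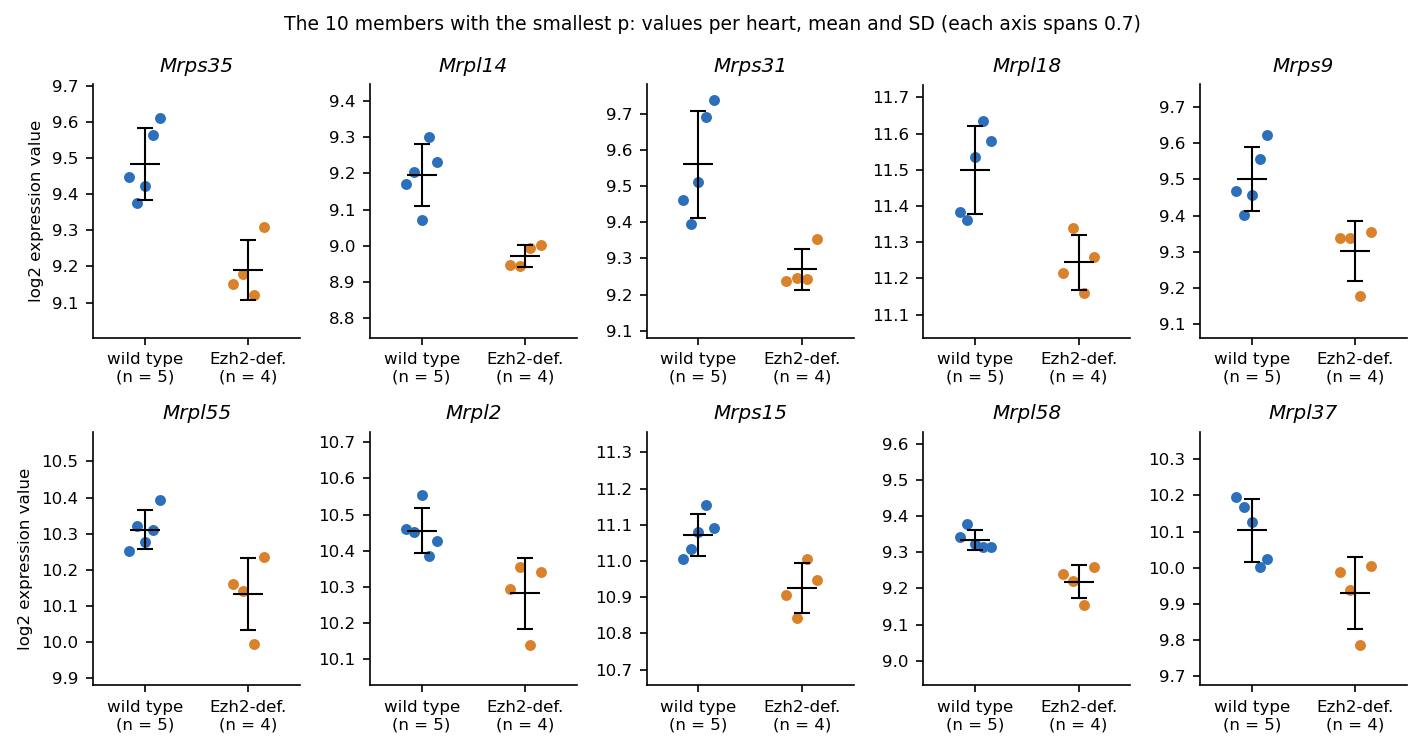
Log2 expression value in each heart for the 10 members with the smallest p, with group mean and SD (bars); blue, wild type (n = 5); orange, Ezh2-deficient (n = 4). In 8 of the 10 panels no orange point reaches the blue points; in Mrps15 and Mrpl37 they overlap.

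The central protuberance is the upper part of the large subunit, near the transfer RNAs. Of the 8 genes listed for it here, which need not be all of them, 7 had a lower mean (median -0.10). Mrpl18 read 11.38, 11.36, 11.54, 11.64 and 11.58 in wild-type and 11.22, 11.34, 11.16 and 11.26 in Ezh2-deficient hearts, without overlap, and differed by -0.25 (SE 0.07, limma adjusted p = 0.23), or by -0.135 within letter e. Mrpl58, formerly Ict1, is a peptidyl-tRNA hydrolase that frees stalled mitochondrial ribosomes. It read 9.34, 9.38, 9.32, 9.31 and 9.31 in wild-type and 9.24, 9.22, 9.16 and 9.26 in Ezh2-deficient hearts. The difference of -0.12 (SE 0.04, adjusted p = 0.337) was small, and so was its spread within groups. Mrpl46 was also separated (difference -0.10, SE 0.04, adjusted p = 0.419). Mrps30 overlapped by a single wild-type value, that of heart 3, which equalled Ezh2-deficient heart 4 at 8.43 (difference -0.12, adjusted p = 0.373). Mrpl52 was the gene of this list with a higher mean, 8.93 against 8.87 (difference 0.05, adjusted p = 0.768). This difference was 0.02 without Ezh2-deficient heart 3 and 0.10 without wild-type hearts 4 and 5.

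Around the exit of the polypeptide tunnel 7 of 8 genes had a lower mean, with a median of -0.14, and without wild-type hearts 4 and 5 all 8 had, with a median of -0.09. Mrpl45, whose protein anchors the ribosome to the inner membrane, read 10.02 to 10.21 in wild-type and 9.77 to 10.05 in Ezh2-deficient hearts (difference -0.18, SE 0.07, limma adjusted p = 0.387), with -0.08 within letter e. Mrpl39 differed by -0.17 (adjusted p = 0.396), or by -0.09 without wild-type hearts 4 and 5, and Mrpl44, a relative of double-strand ribonucleases, by -0.11 (adjusted p = 0.466). Mrpl47 had the largest difference of all members, -0.32 (SE 0.14, adjusted p = 0.476), but rested on wild-type hearts 4 and 5. It read 8.35, 8.04, 8.39, 8.85 and 8.72 in wild-type and 8.14, 8.13, 8.26 and 8.10 in Ezh2-deficient hearts, so that wild-type heart 2 was the lowest of all 9, and without hearts 4 and 5 of the wild type the difference was -0.105. Mrpl22 read 7.22 to 7.62 and 7.04 to 7.36 (difference -0.20, and -0.09 without wild-type hearts 4 and 5), and is the member that lay below the array median in some hearts; the other 76 lay above it in every heart. Mrpl17 differed by 0.002 (95% interval -0.16 to 0.16).

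The stalk recruits translation factors to the large subunit, and 4 of its 5 listed genes were measured, all with a lower mean and a median of -0.05; without wild-type hearts 4 and 5 the split was 2 lower and 2 higher. Mrpl12, the flexible stalk protein, read 9.83 to 10.01 in wild-type and 9.74 to 10.03 in Ezh2-deficient hearts. Its difference was -0.04 (95% interval -0.18 to 0.09, limma adjusted p = 0.834). This difference was -0.17 among hearts of letter e and 0.06 among those of letter x.

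Of the large-subunit genes outside these lists, Mrpl55 read 10.25, 10.32, 10.28, 10.31 and 10.39 in wild-type and 10.16, 10.14, 9.996 and 10.24 in Ezh2-deficient hearts. The groups did not overlap, and the difference was -0.18 (SE 0.05, limma adjusted p = 0.297), with -0.09 within letter e. Mrpl37, a mitochondria-specific protein, read 10.20, 10.17, 10.13, 10.003 and 10.02 in wild-type and 9.99, 9.94, 9.79 and 10.004 in Ezh2-deficient hearts. Ezh2-deficient heart 4 just exceeded wild-type heart 4, and the difference was -0.17 (SE 0.06, adjusted p = 0.36), or -0.23 without wild-type hearts 4 and 5. Mrpl51 differed by -0.13 (adjusted p = 0.48), by -0.08 without Ezh2-deficient heart 3 and by -0.0095 within letter e. Mrpl57 differed by -0.05 (adjusted p = 0.717).

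The largest higher mean was that of Mrpl20, at 0.20 (SE 0.30, limma adjusted p = 0.846). Its wild-type values were 9.24, 7.85, 9.17, 9.11 and 9.36, and its Ezh2-deficient values 8.82, 9.35, 9.56 and 8.87. Wild-type heart 2 stood below every other heart, and without it the difference was -0.07. Mrpl35 differed by 0.03 (95% interval -0.06 to 0.11).

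By descent, 48 members are homologues of bacterial ribosomal proteins and 28 are specific to mitochondria. Of the former 42 had a lower mean, with a median of -0.08 and 7 lower at an unadjusted p under 0.05. Of the latter 26 had, with a median of -0.12 and 9 lower at an unadjusted p under 0.05. By this rule 5.45% of all probe sets were lower. The gap between the classes was not tested. Without wild-type hearts 4 and 5 the medians were -0.04 and -0.08. Within letter e they were -0.04 and -0.07, and within letter x -0.12 and -0.13. The remaining member, Mrps36, was named as a ribosomal protein but is now known as a subunit of 2-oxoglutarate dehydrogenase. It differed by -0.13 (SE 0.08, limma adjusted p = 0.613) and by -0.02 without wild-type hearts 4 and 5.

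A further probe set was present for 8 members, namely Mrpl23, Mrpl27, Mrpl41, Mrpl47, Mrpl51, Mrps5, Mrps33 and Mrps36. In all 8 it had the same sign as the one used. Mrpl47 showed the largest disagreement, at -0.03 in the further probe set and -0.32 in the one used. For Mrps33 the values were -0.17 and -0.16. Processed copies of such genes exist in the genome, and the table does not show whether probes also match them.

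Genes for other steps of mitochondrial gene expression also mostly read slightly lower; the counts below stand against 52.9% of all probe sets with a lower mean and 5.45% lower at an unadjusted p under 0.05. Of 24 assembly factors of the mitochondrial ribosome 21 had a lower mean (median -0.08), 7 were lower at an unadjusted p under 0.05 and 0 passed limma's adjusted threshold. The GTPase gene Mtg1 read 9.08 to 9.24 in wild-type and 8.91 to 8.99 in Ezh2-deficient hearts (difference -0.20, adjusted p = 0.202), and the rRNA methyltransferase gene Mrm3 differed by -0.17 (adjusted p = 0.322). Of 14 measured translation factors 13 had a lower mean (median -0.10), 2 lower at an unadjusted p under 0.05, with Mtif2, the initiation factor, at -0.16 (limma adjusted p = 0.37) and Mrrf, the recycling factor, at -0.11 (adjusted p = 0.448). All 19 measured genes for charging mitochondrial transfer RNAs had a lower mean (median -0.10), 6 at an unadjusted p under 0.05. Gatb and Qrsl1, which make glutaminyl-tRNA together, differed by -0.23 (limma adjusted p = 0.286) and -0.19 (adjusted p = 0.317). Of 11 measured genes for copying and transcribing mitochondrial DNA 10 had a lower mean (median -0.15), 3 at an unadjusted p under 0.05. Tfam, which packages mitochondrial DNA, differed by -0.21 (limma adjusted p = 0.291) and Mterf2 by -0.39 (adjusted p = 0.342). Without wild-type hearts 4 and 5 the medians of these 4 lists were -0.10, -0.09, -0.12 and -0.09. Without Ezh2-deficient heart 3 the median of the translation factors was -0.06. Within letter e the medians were -0.06 for the first 3 lists and -0.07 for the last. Of 5 ribosomal proteins with other symbols 4 were measured and all had a lower mean, among them Ptcd3 at -0.15 (adjusted p = 0.393) and Dap3 at -0.12 (adjusted p = 0.523).

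Transcripts made inside mitochondria could be read for 2 of 15 listed genes. mt-Co2 read 13.74 to 13.84 in wild-type and 13.81 to 13.86 in Ezh2-deficient hearts, and mt-Nd3 read 13.53 to 13.68 and 13.59 to 13.67. Their differences were 0.03 and 0.01 (limma adjusted p = 0.848 and 0.962). Both read high on a scale whose highest value was 15.02, and how well the arrays resolve differences at this level was not tested. Among 9 regulators of nuclear genes for mitochondria 5 had a lower and 4 a higher mean. The genes of the factors whose cores were searched, Nrf1, Gabpa and Yy1, differed by -0.06, -0.09 and 0.02 (limma adjusted p = 0.804, 0.496 and 0.883). The coactivator gene Ppargc1b differed by -0.22 (adjusted p = 0.403) and the nuclear receptor gene Esrra by -0.12 (adjusted p = 0.47).

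Compared with the genes most like them, the mitochondrial ribosomal proteins had a median close to that of the respiratory chain. All 68 measured nuclear subunits of the chain had a lower mean (median -0.11), where 52.9% of all probe sets had. By limma 27 were lower at an unadjusted p under 0.05, where 5.45% of all probe sets were, and 0 passed limma's adjusted threshold. Sdhd differed by -0.24 (adjusted p = 0.147) and Ndufs3 by -0.17 (adjusted p = 0.239). Without wild-type hearts 4 and 5 the split was 58 lower and 10 higher (median -0.08). The cytosolic ribosomal proteins gave another picture: of 55 measured genes 10 had a lower and 45 a higher mean (median 0.04). That direction turned without Ezh2-deficient heart 3, where 45 had a lower and 10 a higher mean (median -0.04), while 68 of the 77 mitochondrial ribosomal genes still had a lower mean there (median -0.09). With wild-type hearts 4 and 5 left out as well, 45 of the 55 again had a higher mean (median 0.05). Mean deviations of the cytosolic list were 0.22 in wild-type heart 4 and 0.25 in Ezh2-deficient heart 3, against -0.13 to -0.0013 in the others. Both are x hearts whose titles lack the prime. Among the cytosolic genes Rpl30 differed by -0.22 (adjusted p = 0.443) and Rpl28 by 0.09 (adjusted p = 0.559). No test of the difference between these lists was made.

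**Figure D4:**
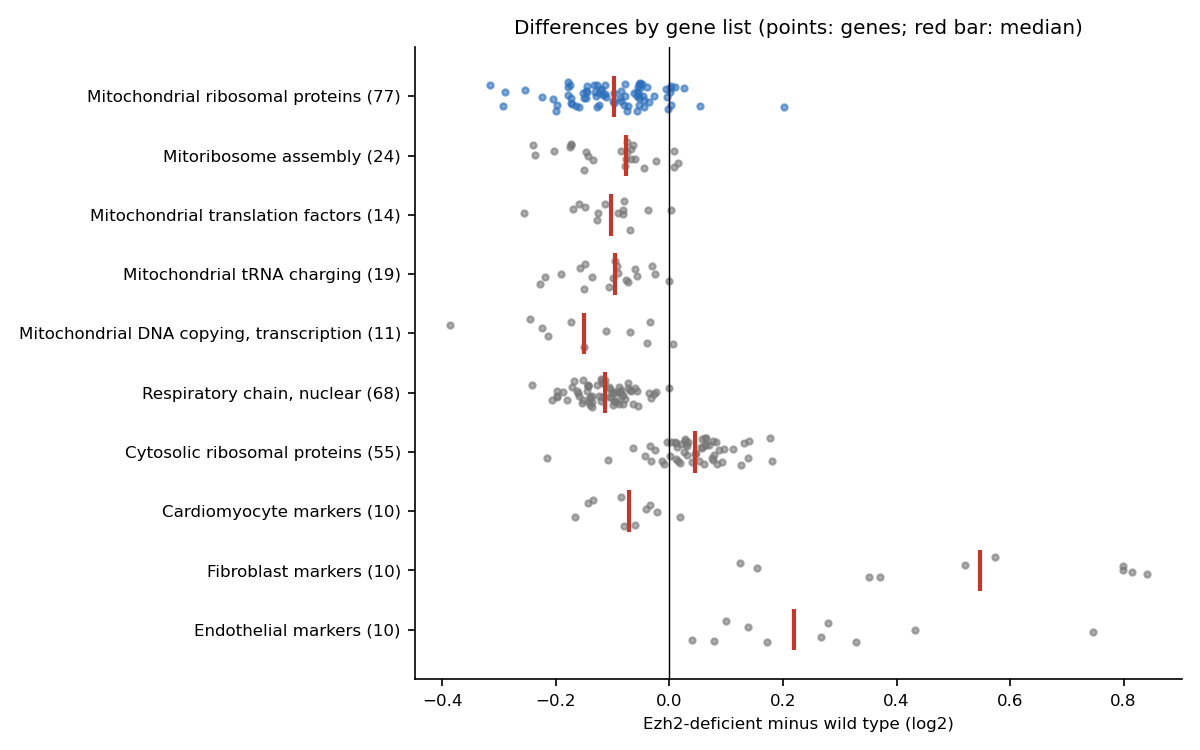
Difference of each gene (point; Ezh2-deficient minus wild type, log2) by list, with the number of measured genes in brackets and the median as a red bar. The mitochondrial lists have medians between -0.15 and -0.08, the cytosolic ribosome 0.04 (-0.04 without Ezh2-deficient heart 3), and fibroblast markers 0.55.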

How the data were processed

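Biotin-labelled RNA of 9 hearts was hybridised, per the labels. The deposited values are log2 expression values. The submitters' processing notes name RMA and Affymetrix Power Tools as what the authors used. Neither a version nor a setting was given in the sources used here. The log2 scale was read from the range of the values. Of 28815 probe sets 21780 had 1 symbol in the platform annotation, 1605 several and 5430 none. Identifiers of 21689 matched a reference table, which changed 0 symbols.

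Groups came from the description label. The labels speak of separate mice. Replicates were numbered in accession order and pair nothing. The comparison used limma 3.58.1 (lmFit, eBayes) in R 4.3.3 with genotype as the only term on all 9 arrays, two-sided, adjusted over all probe sets, threshold 0.05, with no filter. It was also run on simulated data. Their noise was independent between probe sets and arrays, and the planted differences were larger than any among the members. No conclusion about the members is drawn from that run. The number of arrays limits the precision. The members and gene lists were chosen with earlier results of these data known. Named members were those past the threshold (0), the 10 with the smallest p, the 4 with the largest positive difference, the 4 brightest and 4 dimmest, 6 fixed genes and any whose probe sets disagreed in sign, in all 26; from each pathway list up to 2. Mrpl39, Mrpl44, Mrpl45, Mrpl46, Mrpl47, Mrps22, Mrps28, Mrps30, Mrpl36 and the pair of mitochondrially encoded genes were added to the text after values were seen. So were Nrf1, Gabpa and Yy1. Brightness chose the probe set and some named members; no level of one gene was tested against another's.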

Additional observations from a re-analysis of the deposited data

Results flagged for a closer look

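Among 26 named members and the mean over all members, 54 groups of hearts were searched for a heart that stands apart from its own group by Dixon's gap, which chance finds in about 1 in 20 groups, and 6 were found. In wild-type hearts this was Mrpl20, at 7.85 in heart 2 against 9.11 to 9.36 in the other 4. In Ezh2-deficient hearts 4 of the other 5 concerned heart 3, in which erythroid markers were high. That heart was low for Mrps9, at 9.18 against 9.34 to 9.35, and for Mrpl51, at 11.31 against 11.50 to 11.52. It was high for Mrps18c, at 10.90 against 10.52 to 10.57, and for Mrpl52, at 9.04 against 8.89 in each of the other 3. Mrps31 stood high in Ezh2-deficient heart 4, at 9.35 against 9.24 to 9.25. The causes were not tested.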

How the results depend on the processing

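Over 21 alternatives, of which the one without 3 hearts was chosen after seeing the data, the count of members past the adjusted threshold stayed at 0 and 59 to 74 of 77 members had a lower mean. The 26 named members passed in 0 of 546 fits, with a lowest limma adjusted p of 0.0903. Of these members 10 changed sign in at least 1 alternative. None of the 10 with the smallest p did, but they were picked by that p in these same hearts. Their steady sign was thus largely set by the choice, and no conclusion is drawn from it. The median member difference was -0.053 within title letter e, -0.06 without wild-type hearts 4 and 5 (-0.0571) and -0.05 (-0.0463) when Ezh2-deficient heart 3 was left out too. Over all probe sets the median was -0.0085, -0.012 and -0.015 in these settings, in the same order. Leaving out 1 heart gave member medians of -0.11 to -0.07. The 16 members lower at an unadjusted p under 0.05 became 7 within letter e and 10 without wild-type hearts 4 and 5, and 12 to 26 with 1 heart left out, the highest without wild-type heart 2. The share of all probe sets lower by this rule was not counted in these settings. Over all probe sets the 10 calls became 17 with median centring, with the title letter as a block, without dim probe sets or with the mean over probe sets of a gene, 37 with array weights, 3 with the Y-linked mean as covariate and 0 within letter e or x. They were 5 without wild-type hearts 4 and 5, 6 without these and Ezh2-deficient heart 3, and 3 to 15 with 1 heart left out. A longer core left 3 members for NRF1, 2 for ETS and 5 for YY1, and a shorter one gave 10, 24 and 13. The causes were not tested.

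The table has no detection call, and the signal over background of a dim probe set such as that of Mrpl22 is not known. No paired analysis was made: replicate numbers follow accession order and pair nothing, and the numbers 2 and 4, found in titles of both groups, stand with different letters.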
